A study of Acipenser baerii with 14 samples.

Results

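Neuromasts (NM) of Siberian sturgeon (*Acipenser baerii*) larvae were compared between 12 and 24 h post treatment (hpt) with neomycin, an aminoglycoside antibiotic that is toxic to hair cells. The comparison used 4 of the 14 libraries of the study, 2 of NM at 12 hpt and 2 of NM at 24 hpt, and every assembled gene of the count table: 23448 genes, of which 21978 had enough counts to be tested. Larvae were 10 days post hatching and were kept in 200 µM neomycin for 1 h. The larvae sampled at 12 hpt and at 24 hpt were different animals. At each time, ampullary organs (AO) were taken from the same treated larvae as NM. AO, NM and general epithelium (EP) were also taken from larvae that received no neomycin. NM and AO came from the ventral side of the head and EP from the ventral side of the trunk. Tissue of 15 larvae was pooled for each condition, and the pool was divided into 2 parts before RNA extraction. The 2 libraries of a group are therefore technical replicates of 1 pool, and every p-value here measures the spread between such libraries, not between larvae. Each time had its own group of larvae and its own pool, so time and pool cannot be told apart. No strain, line or genotype was given for the larvae.

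A neuromast is a small sense organ of the lateral line that reports water movement. Its mechanosensory hair cells carry a bundle of stereocilia and a kinocilium under a gelatinous cupula, release glutamate at ribbon synapses onto afferent nerve fibres, and are surrounded by support cells and an outer ring of mantle cells. Aminoglycosides enter hair cells through their transduction channels and kill them, and in fish the support cells divide or convert to replace them. *atoh1* is the transcription factor that starts the hair cell fate, *pou4f3* keeps hair cells alive as they mature, and *otof* and *slc17a8* are needed for release of glutamate at the ribbon.

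Expected counts per library summed to 7360075 and 9161105 in NM at 12 hpt and to 7121038 and 8294296 in NM at 24 hpt, against 7121038 to 10067958 over all 14 libraries. Values are CPM, counts set to a common library size with TMM factors, which are taken from the bulk of the genes of each library. Changes are log2 fold changes of 24 hpt against 12 hpt. A gene was called when this change was beyond 1 in either direction and its false discovery rate (FDR) was under 0.01. The FDR is the Benjamini-Hochberg adjustment, over all genes tested, of the p-values of edgeR's quasi-likelihood test. The standard error (SE) printed with a change was not fitted directly. It was taken as the absolute change over the square root of that test's F value. Where a group has few counts, this SE can be smaller than counting error. Across genes, which are not independent replicates, the log2 CPM of the replicates correlated at 0.969 (12 hpt) and 0.973 (24 hpt). The tissue label was checked against markers of hair cells. The paper reports these markers in AO as well, so the check can set NM apart from EP but not from AO. The contigs of highest level of *atoh1* and *otof*, with *pou4f3* and *slc17a8*, were higher in each of the 4 libraries than the mean of EP, for instance 12.9 and 15.2 CPM of *atoh1* at 12 hpt and 8.72 and 10.9 at 24 hpt against 2.20 in EP. Many symbols belong to several assembled genes, here called contigs. These can be paralogs or pieces of 1 transcript, and the estimated counts may divide reads between them, so each contig's value is uncertain to that extent. All contig numbers belong to the Trinity assembly of the study.

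Between 12 and 24 hpt, 2126 genes rose (9.67% of those tested) and 1229 fell (5.59%), together 15.3% of the genes tested, and the median change over all genes was -0.06. In 6851 genes (31.2%) both libraries at 24 hpt were above both at 12 hpt, and in 8174 (37.2%) both were below. The genes that rose were led by lens crystallins and by genes of neurons and synapses. The genes that fell were led by genes of skeletal muscle and of liver, with keratins and collagens among them. Of the 2126 genes that rose, 1765 (83.0%) had their highest mean outside the comparison in AO at 24 hpt, where 21.0% of all tested genes had it, and 11 (0.517%) had it in EP. Of the 1229 genes that fell, 912 (74.2%) had it in EP, where 21.7% of all tested genes had it, and 133 (10.8%) had it in untreated NM. The 2 NM libraries at 24 hpt had TMM factors of 1.16 and 1.19 against 0.936 and 0.965 at 12 hpt. With library totals in place of these factors the median change moved up by 0.304, and 2923 genes rose and 761 fell, so that 79.3% of calls were upward in place of 63.4%.

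**Figure D1:**
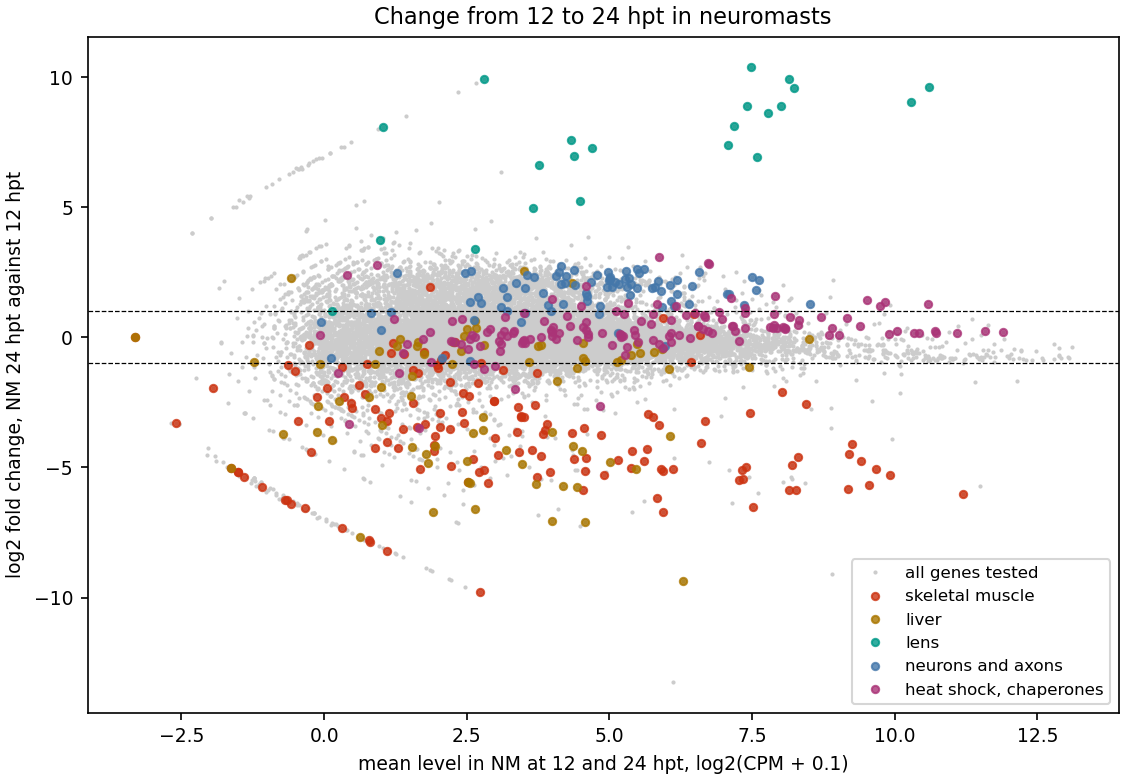
Log2 fold change of NM at 24 hpt against 12 hpt (vertical axis) against the mean level at both times (horizontal axis, log2 of CPM plus 0.1) for the 21978 genes tested, with 5 gene lists in colour and dashed lines at a change of 1 in either direction. Most lens genes lie far above the other genes and most skeletal muscle genes far below. Of the liver genes, 38 of 77 were called lower. Of the neuron and axon genes, 69 of 83 lie above the upper line and were called. The slanted streaks at both edges are genes without a count at 1 of the times.

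Of the genes known from hair cells, *atoh1*, *pou4f3*, *slc17a8*, *otof* and *myo7a* were not called. Some genes of the hair bundle, given below, were. *atoh1* was at 12.9 and 15.2 CPM at 12 hpt and at 8.72 and 10.9 CPM at 24 hpt, a difference of -0.52 ± 0.20 (log2, SE, FDR = 0.060), and both late libraries were below both early ones. *pou4f3* measured 5.81 and 6.45 CPM, then 6.42 and 6.19 CPM (0.03 ± 0.16, FDR = 0.93), with overlapping groups. *slc17a8*, the vesicular glutamate transporter of hair cells, measured 23.1 and 34.9 CPM, then 27.1 and 28 CPM (-0.08 ± 0.20, FDR = 0.79). *otof* (otoferlin, the calcium sensor of vesicle release) had 6 contigs with changes of 0.01 to 0.51, and its contig of highest level went from 52.3 and 52.2 CPM to 55.3 and 58.4 CPM. The support cell and progenitor factor *sox2* was at 144 and 140 CPM and then at 138 and 142 CPM (-0.02 ± 0.07, FDR = 0.84). The bundle motor *myo7a* was low throughout, 1.60 and 1.59 CPM and then 1.09 and 0.710 CPM (-0.83 ± 0.30, FDR = 0.13). These p-values do not show that the genes stayed level. For the pools sampled, the SEs put the changes of *sox2*, *pou4f3* and the main *otof* contig well inside the threshold of 1, whereas that of *myo7a* is less certain. The SEs do not cover the spread between larvae, so they set no limit on the change in other larvae. In untreated NM, *atoh1* was at 28.8 CPM, *pou4f3* at 8.81 CPM and the main *otof* contig at 66.5 CPM.

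**Figure D2:**
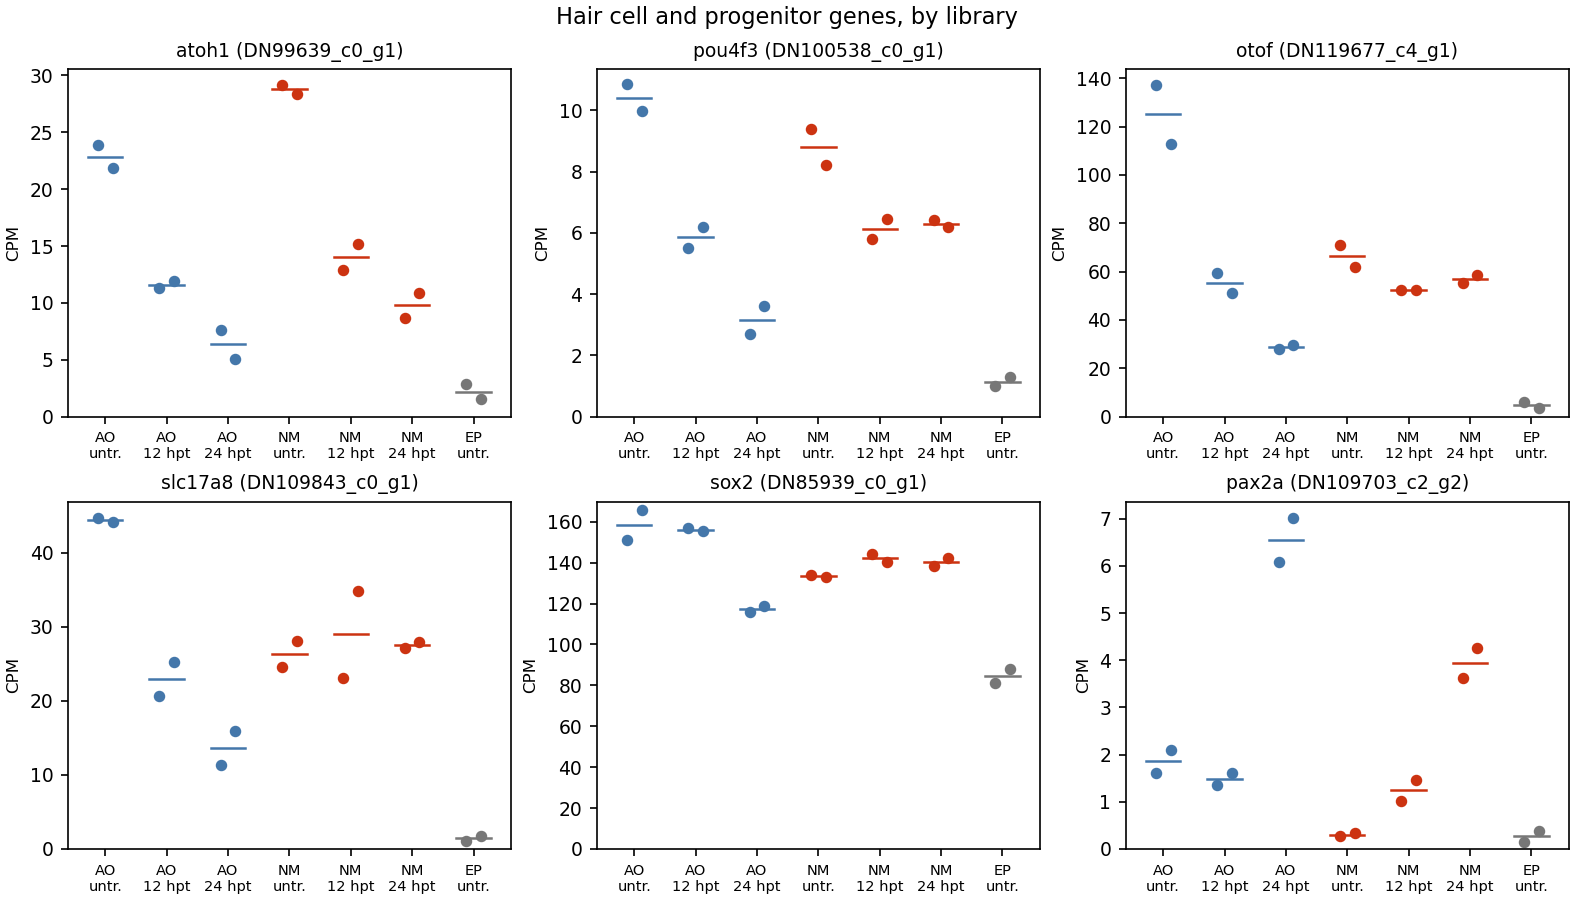
CPM of *atoh1*, *pou4f3*, *otof*, *slc17a8*, *sox2* and *pax2a* in all 14 libraries by group, with a point for each library and a line at the group mean; each panel has its own linear axis from 0. In NM the first 5 genes were not called between 12 and 24 hpt, both *atoh1* values at 24 hpt lie below those of the other NM groups, and *pax2a* is higher at 24 hpt.

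Of 40 contigs of transcription factors known from hair cell and sensory neuron development, 8 rose and 1 fell (median change 0.12). Together these were 22.5%, against 15.3% of all genes tested. Those that rose were *myt1*, both contigs of *scrt2*, *barhl1*, *barhl2*, *prox1*, *neurod1* and *isl1*, factors that neurons as well as hair cell lineages use. *myt1*, a zinc finger factor of neural differentiation, rose from 12.1 and 10.9 CPM to 40.7 and 35.4 CPM (1.73 ± 0.13, FDR = 4.5e-06), and *neurod1*, a factor of neuron differentiation, from 24.0 and 22.4 CPM to 53.2 and 49.2 CPM (1.14 ± 0.11, FDR = 2.9e-05). *eya4* fell by 1.03 on the log2 scale, a value at the edge of the threshold. Without NM 24 hpt replicate 2 the number that rose was 5. The number that fell was 0 without NM 12 hpt replicate 1, and 2 without NM 12 hpt replicate 2 or NM 24 hpt replicate 2. The call of *eya4* was lost without NM 12 hpt replicate 1 or NM 24 hpt replicate 1, with DESeq2 or its size factors, with the 4 NM libraries fitted alone and with library totals. That of *isl1* was lost without NM 12 hpt replicate 1 or NM 24 hpt replicate 2 and with the 4 NM libraries alone, and that of *prox1* without NM 12 hpt replicate 2 or NM 24 hpt replicate 2. In a list of 12 contigs of candidate regulators, 1 rose and 1 fell (16.7%, against 15.3% of all genes tested). The contig that rose was *pax2a*, a paired box factor of otic and kidney development. It rose from 1.02 and 1.47 CPM to 3.63 and 4.26 CPM (1.64 ± 0.28, FDR = 0.0010), and its call was lost without NM 12 hpt replicate 1, with DESeq2 and with the 4 NM libraries fitted alone. The T-box factor *tbx18*, fell from 2.03 and 2.72 CPM to 0.242 and 0.406 CPM (-2.81 ± 0.32, FDR = 6.95e-05) and was highest in EP, at 7.07 CPM. *fgf8*, *ep300* and *ptch1*, on the same list, had changes of 0.15, -0.32 and 0.08 and were not called.

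Genes of the hair bundle moved both ways: 14 of 75 rose and 7 fell (median 0.08), together 28% against 15.3% of all genes tested. *elmod1*, a regulator of small GTPases needed for bundle shape in mice, rose from 14.5 and 15.4 CPM to 73.3 and 71.7 CPM (2.27 ± 0.11, FDR = 2.7e-07). *atp2b2*, the calcium pump of stereocilia that is also abundant in neurons, rose in 4 contigs, 1 of them from 8.42 and 4.53 CPM to 49.3 and 38.9 CPM (2.80 ± 0.34, FDR = 1.2e-04). In untreated NM, *elmod1* was at 2.57 CPM and this *atp2b2* contig at 0.28 CPM, against 2.52 and 1.95 CPM in EP. *ush1g*, a scaffold of the upper tip link, rose from 2.76 and 3.06 CPM to 11.3 and 8.62 CPM (1.76 ± 0.23, FDR = 0.000205). The tip link cadherins rose from low levels. *pcdh15* went from 1.45 and 1.25 CPM to 3.87 and 4.26 CPM (1.59 ± 0.22, FDR = 3.0e-04), and 3 of the 10 contigs of *cdh23* rose by 1.18 to 1.49. DESeq2 made none of these 4 cadherin calls, and the calls of 2 *cdh23* contigs were lost without any single one of the 4 NM libraries. With these 4 fitted alone 2 of the *cdh23* calls were lost. The genes that fell were 3 contigs of *xirp2*, an actin-binding protein of striated muscle and stereocilia (largest change -3.06), 3 contigs of *otoa*, which anchors acellular gels to support cells (-1.29 to -1.39), and *triobp*. The *xirp2* contig at -3.06 was highest in EP, at 10.52 CPM, against 0.07 CPM in untreated NM. The *xirp2* contig at -2.27 was also highest in EP, at 9.57 CPM, against 0.734 CPM in untreated NM. In AO the former was called higher at 24 hpt than at 12 hpt, and the latter was not called. The part of muscle in these *xirp2* changes was not tested. The number of bundle genes that rose was 7 with DESeq2 and 9 without NM 24 hpt replicate 2, and the number that fell was 4 with library totals, where 2 of the *otoa* calls were lost. Of 21 gel and cupula matrix contigs, 5 fell (23.8%, against 5.59% of all genes tested), and 3 when the 4 NM libraries were fitted alone. They were 3 of the 5 contigs of *cilp*, a cartilage matrix protein (-1.2, -2.88 and -3.33), *sparc*, a collagen-binding matrix protein with 24 counts at 12 hpt and none at 24 hpt (at least 9.22-fold lower), and *otop1*, a proton channel of the vestibular organ. *otop1* had 48 counts at 12 hpt and 3 at 24 hpt, a ratio of 18.4 (95% counting interval 5.94 to 92.6). Among the 5 that fell, *sparc*, *otop1* and the *cilp* contigs at -2.88 and -3.33 had their highest group mean in EP. These means were 2.79, 4.27, 26.0 and 18.0 CPM, against 0, 0.305, 1.70 and 1.15 CPM in untreated NM. In AO both of these *cilp* contigs were called higher at 24 hpt than at 12 hpt, and *sparc* and *otop1* were not called. The part of other tissue in this fall was not tested.

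Support cell and mantle cell genes comprised 50 contigs, of which 8 rose and 2 fell, together 20% against 15.3% of all genes tested. With library totals 14 rose. *sox9*, a factor of support cells and of cartilage, rose in 2 contigs and in another annotated as *sox9-b* (1.60, 1.45 and 1.38). The contig with the largest change went from 47.6 and 39.1 CPM to 136 and 126 CPM (1.60 ± 0.11, FDR = 2.9e-06), below its 243 CPM in untreated NM. *slc1a3*, a glutamate transporter of support cells and glia, rose in 3 contigs, the most abundant from 154 and 146 CPM to 335 and 337 CPM (1.16 ± 0.07, FDR = 7.1e-07). *glul*, glutamine synthetase, fell from 503 and 466 CPM to 196 and 182 CPM (-1.36 ± 0.07, FDR = 3.2e-07). *krt15*, a keratin of basal epithelial cells, fell from 322 and 360 CPM to 8.11 and 8.52 CPM (-5.35 ± 0.21, FDR = 6.7e-08). Untreated NM had 13.4 CPM of it and EP 434 CPM.

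Genes of synapses and neurons rose across the lists, set against 9.67% of all genes tested that rose and 5.59% that fell. Of 98 contigs of ribbon synapse genes, most of which neuronal synapses also use, 45 rose (median 1.24), and 1 fell when NM 24 hpt replicate 2 was left out. *snap25*, a SNARE protein of vesicle fusion, rose from 46.0 and 42.5 CPM to 272 and 236 CPM (2.52 ± 0.10, FDR = 8.3e-08). *cplx1*, complexin of conventional synapses, rose from 43.7 and 39.3 CPM to 220 and 205 CPM (2.36 ± 0.12, FDR = 3.3e-07). For *pclo*, a scaffold of the active zone, the contig with the largest change had no count at 12 hpt and 180 counts at 24 hpt, which is at least 52.1-fold higher when the earlier group is set to 3 counts in sum. *rims1*, another scaffold, had a contig with 0 and 97 counts whose call was lost without any single one of the 4 NM libraries and with these 4 fitted alone.

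Of 83 contigs of neuron and axon genes, 69 rose (83.1%, against 9.67% of all genes tested, median 1.90). The synaptic vesicle proteins *sv2a*, in 3 contigs, and *syn1* rose by 2.56 to 2.64 and by 2.6. *elavl4*, an RNA-binding protein of neurons, rose from 14.7 and 13.6 CPM to 78.1 and 76.7 CPM (2.46 ± 0.10, FDR = 7.7e-08), against 0.234 CPM in untreated NM. *map2*, a protein of dendrites, rose in 4 of 5 contigs by 2.17 to 2.52. *ntrk2*, the receptor of brain-derived neurotrophic factor, rose from 4.79 and 4.42 CPM to 30.5 and 30.6 CPM (2.73 ± 0.14, FDR = 4.5e-07). *scg2*, a granin of secretory vesicles, rose from 28.9 and 27.2 CPM to 167 and 155 CPM (2.52 ± 0.09, FDR = 2.8e-08). The summed share of the list in all counts was 0.154% and 0.166% at 12 hpt and 0.632% and 0.667% at 24 hpt, against 0.0475% and 0.0505% in untreated NM. These libraries hold RNA of many cells, so more neurons and more neuronal RNA per cell cannot be told apart. The part of nervous tissue from outside the organ in these values was not tested.

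The neuronal genes included those of transmitter identity. Of 36 contigs of neuropeptides and of enzymes and transporters of transmitters, 24 rose (66.7%, against 9.67% of all genes tested, median 1.93). *gad1*, which makes GABA, rose from 16.1 and 14.6 CPM to 143 and 134 CPM (3.18 ± 0.10, FDR = 2.0e-08), and *slc32a1*, which loads GABA into vesicles, from 8.28 and 7.93 CPM to 46.3 and 46.3 CPM (2.51 ± 0.12, FDR = 2.0e-07). *slc17a6*, the glutamate transporter of neurons, rose from 39.1 and 35.4 CPM to 118 and 124 CPM (1.70 ± 0.13, FDR = 4.0e-06), unlike its hair cell relative *slc17a8*. Peptide genes reached the largest changes of the list. *sst* (somatostatin) rose from 6.82 and 6.34 CPM to 72.9 and 74.4 CPM (3.48), *gal* (galanin) from 2.61 and 3.62 CPM to 42.0 and 49.7 CPM (3.85), *trha* (thyrotropin-releasing hormone) from 4.5 and 5.55 CPM to 44.0 and 41.2 CPM (3.07), and *pdyn* (prodynorphin) from 2.32 and 1.25 CPM to 23.9 and 24.9 CPM (3.80). *ucn3* (urocortin 3) was at 0.436 and 0.793 CPM at 12 hpt and at 13.9 and 14.7 CPM at 24 hpt (4.47 ± 0.29, FDR = 1.7e-06). In all 5 of these peptide genes the groups were far apart, and the means in EP were between 0.674 and 1.01 CPM.

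Of 115 contigs of neurotransmitter receptors, 73 rose and 2 fell (median 1.97), together 65.2% against 15.3% of all genes tested. *grin1*, the obligatory subunit of NMDA receptors, rose in both contigs, 1 of them from 14.2 and 11.6 CPM to 59.8 and 61.2 CPM (2.24 ± 0.11, FDR = 2.3e-07). *gria2*, a subunit of AMPA receptors, rose by 1.86 and 1.79 in its 2 contigs, and *grm5*, a metabotropic glutamate receptor, by 2.99. *chrna1*, the acetylcholine receptor subunit of skeletal muscle, fell from 4.65 and 4.53 CPM to 0.242 and 0.304 CPM (-3.99 ± 0.30, FDR = 4.9e-06). Among ion pumps and carriers, 31 of 129 contigs rose and 17 fell, together 37.2% against 15.3% of all genes tested. *slc12a5*, the neuronal potassium chloride carrier, rose in 4 contigs by 2.18 to 2.76, of which the contig with the largest change lost its call without NM 12 hpt replicate 2 or NM 24 hpt replicate 1 and with the 4 NM libraries fitted alone. The bicarbonate carrier *slc4a5*, known from the choroid plexus and kidney of mice, fell in 3 contigs, 1 of them from 13.6 and 14.2 CPM to 0.969 and 0.913 CPM (-3.87 ± 0.24, FDR = 1.2e-06).

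The list of Schwann cell and myelin genes gave 6 contigs that rose and 2 that fell among 19, together 42.1% against 15.3% of all genes tested. *mbp*, a myelin protein, rose from 84.5 and 95.6 CPM to 201 and 203 CPM (1.17 ± 0.08, FDR = 1.5e-06), below its 330 CPM in untreated NM. *mpz*, the major protein of peripheral myelin, rose in both contigs (1.24 and 1.46), of which the second lost its call when the 4 NM libraries were fitted alone, and *s100b*, a calcium-binding protein of glia, from 19.9 and 19.3 CPM to 97.2 and 93.1 CPM (2.28 ± 0.07, FDR = 2.2e-08). The contigs of *pmp22* and *mal*, which epithelia also express, fell by 1.26 and, in 1 of 2, by 1.07 on the log2 scale. Without NM 24 hpt replicate 1 only 1 contig of this list fell.

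Lens genes had the largest upward changes. Of 22 contigs tested, 21 rose and 1 was not called (95.5% called, against 15.3% of all genes tested). The median change was 7.84, or 7.33 with 2 contigs without a count at 12 hpt set to their lower bound. All 22 were higher in both libraries at 24 hpt than in both at 12 hpt. *cryba2*, a beta-crystallin, rose from 0.871 and 0.340 CPM to 547 and 586 CPM (9.91 ± 0.29, FDR = 1.0e-08). *crygn*, a gamma-crystallin, rose from 0.290 and 0.226 CPM to 355 and 357 CPM (10.37 ± 0.36, FDR = 9.8e-08), and the contig of *gm2*, a gamma-crystallin of fish, with the highest level from 4.65 and 3.40 CPM to 3645 and 2557 CPM (9.60 ± 0.32, FDR = 2.2e-08). *bfsp2*, which forms the beaded filaments of lens fibres, rose from 0.436 and 0.226 CPM to 40.4 and 41.9 CPM (6.95 ± 0.20, FDR = 1.0e-08), and *lim2*, a membrane protein of lens fibres, from 0.290 and 0.226 CPM to 26.9 and 26.4 CPM (6.63 ± 0.33, FDR = 3.3e-07). *cryaa*, the alpha-crystallin of the lens, had 3 counts at 12 hpt and 715 at 24 hpt, a ratio of 206.8 (95% counting interval 70.5 to 1005). Its SE of 0.26 (log2) is narrower than this interval. The SEs of lens genes with few counts at 12 hpt should therefore not be read as their full uncertainty. The summed share of lens genes was 0.00242% and 0.00211% of counts at 12 hpt and 1.18% and 1.07% at 24 hpt. In the other 5 groups it was highest in untreated AO, at 0.0726% and 0.0729%, and was at most 0.0105% in the libraries of the remaining 4. Among 21 contigs of photoreceptor and retina genes, 2 rose and 1 fell (median 0.12), together 14.3% against 15.3% of all genes tested. The number that rose was 1 without NM 12 hpt replicate 1, NM 12 hpt replicate 2 or NM 24 hpt replicate 2, and the one that fell was lost without NM 12 hpt replicate 1 or either NM library of 24 hpt. Their summed share was 0.00742% and 0.00684% at 12 hpt and 0.00999% and 0.010% at 24 hpt. Both organs lay on the head, and the part of eye tissue in these values was not tested.

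**Figure D3:**
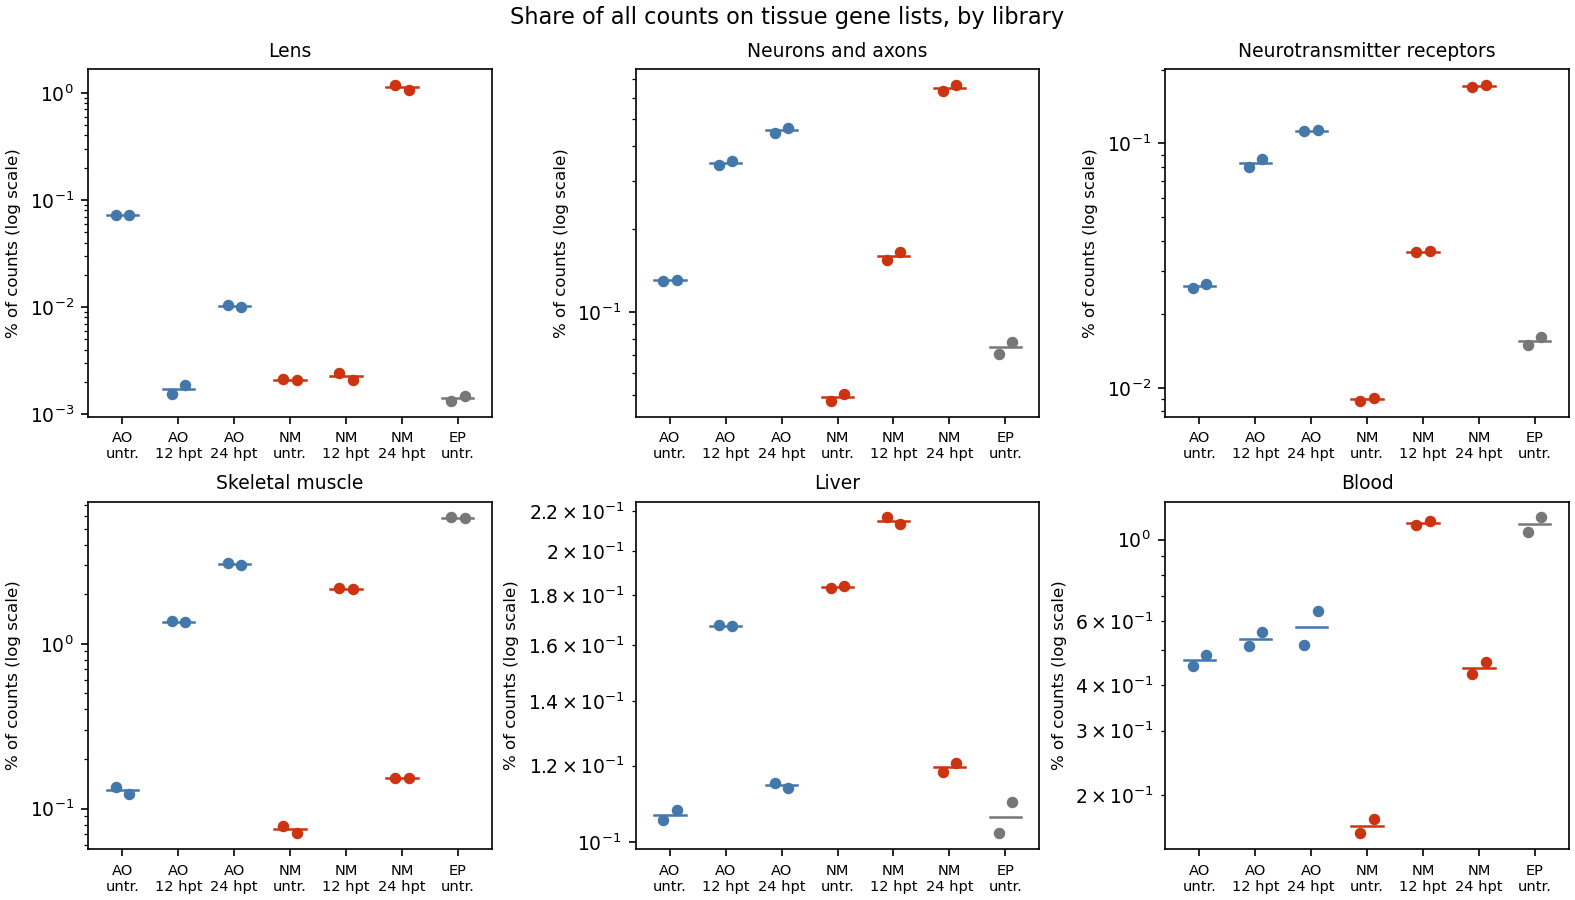
Summed share of all counts (percent, log axis, a scale for each panel) on 6 gene lists in the 14 libraries, with a point for each library and a line at the group mean. Lens, neuron and receptor genes are highest in NM at 24 hpt. Muscle genes are highest in EP, followed by AO at 24 hpt and then NM at 12 hpt. Blood genes are high in NM at 12 hpt and in EP, and the liver share of NM falls from 12 to 24 hpt.

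Skeletal muscle genes had the broadest fall, set against 5.59% of all genes tested that fell and 9.67% that rose. Of 142 contigs, 107 fell and 1 rose (median -3.66, or -3.32 with contigs without a count at 24 hpt at their bound), and the single call upward was lost without NM 12 hpt replicate 1, NM 12 hpt replicate 2 or NM 24 hpt replicate 2. *mylpf*, the regulatory light chain of fast muscle myosin, fell from 4639 and 4603 CPM to 71.4 and 71.3 CPM (-6.02 ± 0.09, FDR = 2.2e-10). The myosin heavy chain *myh3* fell from 385 and 344 CPM to 4.48 and 3.45 CPM (-6.53 ± 0.25, FDR = 6.1e-08), and *casq2*, the calcium store protein of muscle, from 118 and 126 CPM to 1.45 and 0.913 CPM (-6.70 ± 0.21, FDR = 1.8e-08). *atp2a1*, the calcium pump of fast muscle, fell in 3 of 5 contigs by 2.09 to 4.97 on the log2 scale. The titin contig *ttn* with the largest change had 194 counts at 12 hpt and none at 24 hpt, at least 74.5-fold lower. Its call was lost when the 4 NM libraries were fitted alone. Of the other 3 *ttn* contigs picked for large changes and without a count at 24 hpt, 2 lost their calls in that fit. The remaining contig lost its call without any single one of the 4 NM libraries. Muscle genes made up 2.18% and 2.14% of counts at 12 hpt and 0.153% and 0.154% at 24 hpt. The other groups had 0.0791% and 0.0711% (untreated NM), 0.136% and 0.122% (untreated AO), 1.38% and 1.35% (AO at 12 hpt), 3.10% and 3.02% (AO at 24 hpt) and 5.86% and 5.82% (EP). The share of muscle in NM at 12 hpt thus lay between those of AO at 12 and 24 hpt, and the part of muscle left on dissected pieces in this change was not tested.

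Skin and connective tissue genes fell with them. Among keratins and junction proteins, 24 of 124 contigs fell and 3 rose (median -0.61), against 5.59% and 9.67% of all genes tested. *krt13* fell from 1377 and 1260 CPM to 239 and 245 CPM (-2.45 ± 0.07, FDR = 9.4e-09), and *krt42* from 1873 and 1697 CPM to 433 and 388 CPM (-2.12 ± 0.11, FDR = 5.2e-07). Of the desmosomal plaque protein *dsp*, 6 of 9 contigs fell by 1.02 to 1.29 on the log2 scale. These changes were near the threshold, and all 6 calls were lost with library totals, 4 without NM 12 hpt replicate 1, 3 without NM 24 hpt replicate 2 and 1 without NM 24 hpt replicate 1. The 3 upward keratin and junction calls became 1, 0 and 1 without NM 12 hpt replicate 1, NM 12 hpt replicate 2 and NM 24 hpt replicate 1. Among 131 collagen contigs, 25 fell and 1 rose (median -0.76), against the same shares of all genes. *col10a1*, the collagen of hypertrophic cartilage and fish bone, fell from 269 and 290 CPM to 3.27 and 3.45 CPM (-6.37 ± 0.09, FDR = 2.2e-10), and *col1a1*, the main fibrillar collagen, from 196 and 202 CPM to 83.5 and 93.3 CPM (-1.17 ± 0.08, FDR = 3.2e-06). Untreated NM had 345 CPM of *col1a1* and 3.63 CPM of *col10a1*. Of 46 cartilage and bone contigs, 12 fell and 3 rose, the latter being the *sox9* contigs. Together these were 32.6%, against 15.3% of all genes tested. A contig of *sp7*, a factor of bone-forming cells, went from 4.07 and 5.44 CPM to 0.121 and 0.406 CPM (-4.05 ± 0.47, FDR = 7.9e-05). With library totals, 9 keratin and junction contigs and 10 collagen contigs fell, and *col1a1* was not called.

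Blood and vessel genes were also among those that fell. Of 26 blood contigs 12 fell and 2 rose (median -1.34), together 53.8% against 15.3% of all genes tested. The embryonic alpha globin *hbz* fell from 7284 and 6593 CPM to 2219 and 2089 CPM (-1.69 ± 0.07, FDR = 9.8e-08). The factor *tal1*, which early blood cells and some neurons express, rose (2.51), as did *ank1*, a membrane ankyrin of red cells and neurons, whose call was lost without NM 12 hpt replicate 2 or NM 24 hpt replicate 1 and with the 4 NM libraries fitted alone. Of 44 vessel contigs, 13 fell (29.5%, against 5.59% of all genes tested, median -1.08). *fli1*, an endothelial factor, fell in its more abundant contig from 26.7 and 26.6 CPM to 8.23 and 9.13 CPM (-1.61 ± 0.11, FDR = 2.3e-06). The number of vessel contigs that fell was 3 when the 4 NM libraries were fitted alone, 8 with DESeq2 and 6 with library totals. Among mucus and goblet cell genes, 8 of 74 contigs rose and 5 fell, together 17.6% against 15.3% of all genes tested, with a median of -0.14 that was 0.16 with library totals. *agr2*, a chaperone of mucin, fell from 222 and 214 CPM to 46.1 and 41.6 CPM (-2.31 ± 0.07, FDR = 1.3e-08), and the mucin *muc5ac* from 29.2 and 30.1 CPM to 7.14 and 7.30 CPM (-2.04 ± 0.10, FDR = 2.5e-07). Of 51 leukocyte contigs, 3 fell, and 1 without NM 12 hpt replicate 1. The part of the leukocyte contigs that fell was 5.88%, against 5.59% of all genes tested. The summed share of blood genes was 1.05% and 1.15% in EP, 1.10% and 1.12% in NM at 12 hpt and 0.429% and 0.462% in NM at 24 hpt.

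A few genes had no or nearly no count at 24 hpt. *hcea*, a hatching enzyme, had 140 counts at 12 hpt and none at 24 hpt (at least 53.8-fold lower), the cathepsin *ctsv* 113 and none (at least 43.4-fold) and the metalloproteinase *mmp20*, the enamelysin of teeth, 112 and none (at least 43.0-fold). All 3 were highest in EP, at 28.3, 19.2 and 17.6 CPM. *gh2*, a growth hormone of the pituitary, had 149 counts and 1 count, a ratio of 171.7 (95% counting interval 30.4 to 6828), and was at 20.9 and 18.8 CPM in AO at 12 and 24 hpt. It was the single call among 5 contigs of pituitary hormones (20%, against 15.3% of all genes tested). *ttr*, which carries thyroid hormone and comes from the liver and choroid plexus of mice, fell from 137 and 113 CPM to 9.20 and 8.62 CPM (-3.81 ± 0.15, FDR = 5.8e-08).

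Of 77 contigs put on the liver list by symbol alone, 38 fell and 2 rose, together 51.9% against 15.3% of all genes tested. The median was -1.48, or -1.43 with contigs without a count at 1 of the times at their bound. Those that rose were annotated as *f9* and *sult4a1*, and a place on the list does not show that they came from liver. Not both of these calls held without NM 12 hpt replicate 2 or NM 24 hpt replicate 2. Among the contigs that fell, *fabp10a*, the liver fatty acid-binding protein, went from 192 and 120 CPM to 0.484 and 0 CPM (-9.37 ± 0.63, FDR = 2.0e-06). *fga* and *fgb*, chains of fibrinogen, fell by 7.09 and 7.05 on the log2 scale. *apoa1*, the main protein of high-density lipoprotein, fell from 33.4 and 37.7 CPM to 0.363 and 0.913 CPM (-5.72 ± 0.36, FDR = 1.25e-06). Unlike muscle genes, these were also high in untreated NM, at 191 CPM for *fabp10a* and 78.6 CPM for *apoa1*, and low in EP, at 1.52 and 0.130 CPM. The summed liver share was 0.183% and 0.184% in untreated NM, 0.217% and 0.213% at 12 hpt, and 0.118% and 0.121% at 24 hpt. Its part in other changes was not tested. The 9 contigs of exocrine pancreas enzymes had a median of 1.41, with 0 called by edgeR's quasi-likelihood test or by DESeq2 and 3 at an unadjusted p under 0.05.

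In all, 696 tested genes (3.17%) were on the lists of neurons, peptides and transmitters, receptors, glia, blood, vessels, leukocytes, muscle, cartilage and bone, liver, pancreas, eye and pituitary. They made up 9.55% of the genes that rose and 15.5% of those that fell, and with them left out before scaling and fitting, 1927 genes rose and 1019 fell.

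Among matrix metalloproteinases and ADAMs, which break down matrix and shed surface proteins, 14 of 95 contigs fell and 7 rose. Over all genes tested 5.59% fell and 9.67% rose. With the 4 NM libraries fitted alone, 9 contigs of the list fell. *mmp9*, a gelatinase of wounds, fell from 51.1 and 51.6 CPM to 6.30 and 8.52 CPM (-2.78 ± 0.13, FDR = 2.6e-07), near its 12.8 CPM in untreated NM. *mmp13*, an interstitial collagenase, fell in 3 contigs, the most abundant from 83.2 and 82.0 CPM to 16.1 and 15.8 CPM (-2.37 ± 0.07, FDR = 8.7e-09). *mmp21* fell from 67.2 and 66.6 CPM to 17.4 and 18.6 CPM (-1.89 ± 0.11, FDR = 9.0e-07). In untreated NM these *mmp13* and *mmp21* contigs were at 21.9 and 7.69 CPM.

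Among signalling pathways, BMP and TGF-beta genes fell in 21 of 96 contigs and rose in 3 (median -0.52). Over all genes tested 5.59% fell and 9.67% rose. *tgfb2*, a ligand, fell from 12.3 and 14.0 CPM to 1.45 and 1.93 CPM (-2.94 ± 0.27, FDR = 1.7e-05), *inhba*, the activin A subunit, from 20.9 and 21.1 CPM to 2.78 and 4.56 CPM (-2.49 ± 0.17, FDR = 2.0e-06), and *tgfb3* from 21.1 and 26.6 CPM to 8.35 and 9.54 CPM (-1.41 ± 0.18, FDR = 1.5e-04). All 3 of these ligand genes were highest in EP. With library totals 11 contigs of the list fell, and 13 when the 4 NM libraries were fitted alone.

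The Wnt pathway, which acts through frizzled receptors and beta-catenin and is known to drive division of support cells in fish neuromasts, had 14 of 138 contigs that rose and 13 that fell, against 9.67% and 5.59% of all genes tested, so that the upward share was near that of all genes. The median was -0.25, and 0.05 with library totals. Several members around the receptor fell. The largest change of the list was that of *sfrp4*, a secreted frizzled-related protein. It fell from 7.84 and 5.21 CPM to 0.726 and 1.12 CPM (-2.77 ± 0.35, FDR = 1.5e-04) and was highest in EP, at 13.3 CPM. The R-spondins, secreted proteins that amplify Wnt signals, fell in *rspo1*, from 11.3 and 11.8 CPM to 3.27 and 4.67 CPM (-1.53 ± 0.18, FDR = 1.0e-04), in *rspo2*, from 10.3 and 6.79 CPM to 2.30 and 2.54 CPM (-1.80 ± 0.20, FDR = 6.3e-05), and in *rspo3* (-1.10). The nuclear factor *lef1*, also a target of the pathway, fell from 19.2 and 17.3 CPM to 8.60 and 7.51 CPM (-1.18 ± 0.10, FDR = 1.3e-05). The inhibitors *dkk1* and *nkd1*, targets as well, fell by 1.12 and 1.5 on the log2 scale, and the ligand *wnt11* by 1.29. *rspo3*, *lef1*, *dkk1* and *wnt11* were not called with library totals, and *rspo2* and *nkd1* not with the 4 NM libraries alone. Members that rose included the brain ligand *wnt8b*, from 1.60 and 2.72 CPM to 8.23 and 11.1 CPM (2.13 ± 0.36, FDR = 0.000965) and in a second contig (1.91), the axon guidance cadherin *celsr3* in 3 contigs (2.02, 1.96 and 1.27), *apc*, of the beta-catenin destruction complex, in 2 contigs (1.42 and 1.36), and the nuclear factor *tcf7l2* in 2 contigs (1.22 and 1.02). Without NM 12 hpt replicate 1, 7 contigs rose and *wnt8b* was not called. The *celsr3* contig at 1.96 and the *tcf7l2* contig at 1.02 lost their calls without that library or NM 24 hpt replicate 2, and the former also without NM 24 hpt replicate 1. Both were lost with the 4 NM libraries alone. The number that fell was 7 with the 4 NM libraries alone and 6 with library totals.

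Of 81 Notch pathway contigs, 6 rose and 2 fell (9.88%, against 15.3% of all genes tested), and 1 fell without NM 12 hpt replicate 2, NM 24 hpt replicate 1 or NM 24 hpt replicate 2. *dlk1*, a non-canonical ligand of neurons and endocrine cells, rose from 3.19 and 2.49 CPM to 17 and 28 CPM (3.0 ± 0.32, FDR = 4.5e-05), *hes5*, a target gene in neural progenitors and support cells, from 22.2 and 20.8 CPM to 59.6 and 56.1 CPM (1.43 ± 0.09, FDR = 1.0e-06), and the ubiquitin ligase *dtx1* in 2 contigs (1.94 and 1.67). *numb*, which restrains Notch, fell from 38.3 and 42.7 CPM to 5.69 and 6.39 CPM (-2.74 ± 0.13, FDR = 1.8e-07). The FGF pathway had 7 contigs that rose and 3 that fell among 50, together 20% against 15.3% of all genes tested. 1 contig of *fgfbp2* rose (2.31) and another fell (-1.62), and the ligands *fgf7*, from 17.1 and 13.9 CPM to 5.09 and 3.85 CPM (-1.80 ± 0.19, FDR = 4.5e-05), and *fgf10*, from 7.70 and 7.13 CPM to 2.42 and 2.84 CPM (-1.48 ± 0.17, FDR = 7.3e-05), fell. Both are mesenchymal ligands of epithelial receptors. The Hedgehog pathway had 3 upward calls, all in the *disp2* and *disp3* genes of the dispatched family, of which a *disp2* contig (1.58) lost its call without NM 12 hpt replicate 1, NM 12 hpt replicate 2 or NM 24 hpt replicate 2, and 1 downward call, *gas1* (-1.09), which was lost without NM 12 hpt replicate 1 and with library totals. Calls in the Hedgehog list came to 12.1%, against 15.3% of all genes tested. The medians of the Notch and FGF lists were -0.09 and -0.04 and changed sign with library totals (0.22 and 0.26). That of FGF also did so with the size factors of DESeq2 (0.03).

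Of 145 contigs of heat shock proteins and chaperones, 18 rose and 6 fell (median 0.23), together 16.6%, near the 15.3% of all genes tested. *hspa4l*, an Hsp110 family chaperone, had the largest upward changes of the list in 3 contigs (2.82, 2.87 and 3.11): 1 of these rose from 24.1 and 26.8 CPM to 187 and 188 CPM (2.87 ± 0.10, FDR = 2.8e-08) and another from 11.3 and 12.9 CPM to 94.2 and 115 CPM (3.11 ± 0.14, FDR = 1.7e-07). Both had been at 78.3 and 46.1 CPM in untreated NM. The *hsp70* contig of highest level rose from 783 and 988 CPM to 2023 and 2317 CPM (1.29 ± 0.15, FDR = 9.1e-05), and *hsp90a.1* from 535 and 509 CPM to 1219 and 1174 CPM (1.2 ± 0.06, FDR = 5.2e-07). *serpinh1*, the chaperone of collagen, rose from 71.9 and 73.6 CPM to 209 and 205 CPM (1.51 ± 0.07, FDR = 1.3e-07). The genes that fell included small heat shock proteins known from muscle, with *hspb7* at 5.66 and 5.66 CPM and then at 0.484 and 0.507 CPM (-3.47 ± 0.20, FDR = 6.7e-07), *hspb8* (-1.99) and a contig of *hspb1* (-2.63). Another *hspb1* contig of low level rose (2.41), and its call was lost without any single one of the 4 NM libraries, with these fitted alone and with DESeq2. The number that fell was 3 without NM 12 hpt replicate 2, with the 4 NM libraries alone and with library totals. The summed share of the list was 3.12% and 3.14% in untreated NM, 2.56% and 2.61% at 12 hpt, and 4.32% and 4.34% at 24 hpt. With library totals 34 contigs rose.

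Genes that respond to low oxygen gave 9 contigs that rose and 4 that fell among 61 (median 0.07). Together these were 21.3%, against 15.3% of all genes tested. *egln1*, a prolyl hydroxylase that senses oxygen, rose from 3.05 and 3.06 CPM to 11.3 and 11.3 CPM (1.88 ± 0.11, FDR = 7.5e-07), *kdm3a*, a histone demethylase, from 1.31 and 1.36 CPM to 6.18 and 6.49 CPM (2.24 ± 0.19, FDR = 9.0e-06), *p4ha2*, a collagen prolyl hydroxylase, from 9.29 and 8.95 CPM to 29.2 and 29.6 CPM (1.69 ± 0.08, FDR = 2.5e-07), and the glucose transporter *slc2a1* in 2 of 4 contigs (1.90 and 1.91). The 4 that fell were 3 contigs of *plod2*, a collagen-modifying enzyme, and 1 annotated as *eno1*, and all 4 were higher in EP than in any other group. The call of the *plod2* contig at -2.88 was lost without any single one of the 4 NM libraries, and that of the contig at -1.25 with library totals. In untreated NM, *egln1* was at 9.62 CPM and *p4ha2* at 34.5 CPM.

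Of 51 contigs of immediate early genes, 6 fell and 1 rose, together 13.7% against 15.3% of all genes tested. *ier3*, an early response gene, fell from 83.8 and 73.0 CPM to 23.6 and 31.3 CPM (-1.51 ± 0.14, FDR = 1.5e-05), and *ctgf*, a matricellular growth factor, in 2 contigs (-1.34 and -1.16), the second of which was not called with library totals. The number that fell was 3 with the 4 NM libraries alone and 2 with library totals. Among inflammation genes 7 of 92 fell and 3 rose, together 10.9% against 15.3% of all genes tested, and fewer fell without NM 12 hpt replicate 1. *tnfaip6*, a secreted protein of injured tissue, fell from 22.1 and 16.0 CPM to 4.60 and 6.19 CPM (-1.79 ± 0.29, FDR = 6.5e-04), and *hmox1*, heme oxygenase, from 15.1 and 13.1 CPM to 4.60 and 4.56 CPM (-1.62 ± 0.12, FDR = 4.5e-06). The antiviral gene *mx1* (1.80) was the single call among 32 contigs of the interferon response, 3.12% against the same 15.3%.

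Genes of cell division were nearly all below the threshold: of 180 contigs, 1 rose and 3 fell (together 2.22%, against 15.3% of all genes tested, median -0.37). Both late libraries were below both early ones in 117 of them and above in 15, against the 37.2% and 31.2% of all genes. With library totals the median was -0.06, and the summed share of the list in all counts was 0.495% and 0.515% at 12 hpt and 0.562% and 0.564% at 24 hpt. The 3 that fell were *cdc25b*, a phosphatase of mitotic entry (-1.35), *orc6*, of the replication origin (-1.06), and *cenpv* (-1.01), and *cdk2*, a kinase of S phase, rose (1.05). The call of *cdc25b* was lost without any single one of the 4 NM libraries, and all 3 downward calls with library totals. The list had 1 downward call without NM 12 hpt replicate 1 or NM 24 hpt replicate 2, 2 upward and 2 downward calls without NM 12 hpt replicate 2, and 0 upward calls without NM 24 hpt replicate 1. DESeq2 and the fit of the 4 NM libraries alone made 0 calls in either direction, and 5 contigs were higher and 91 lower at an unadjusted p under 0.05 in edgeR's test. Cytosolic ribosomal proteins had 0 calls among 78 contigs by edgeR's quasi-likelihood test or DESeq2, and at an unadjusted p under 0.05 2 were higher and 64 lower. Their median was -0.74, and 69 of them were lower in both late libraries. Without NM 12 hpt replicate 2, NM 24 hpt replicate 1 or NM 24 hpt replicate 2, 5, 4 and 1 of them fell. *rpl23* went from 10482 and 9054 CPM to 5738 and 5556 CPM (-0.79 ± 0.12, FDR = 5.1e-04, short of the fold threshold). Together they made up 21.1% and 18.7% of counts at 12 hpt and 15.6% and 13.9% at 24 hpt. Genes of the motile cilium axoneme (3 of 153 rose and 2 fell), proteasome (1 of 52 rose), apoptosis and p53 (1 of 60 rose), the unfolded protein response (1 of 68 fell), oxidative phosphorylation (3 of 76 fell, 2 of them *cox7a2* contigs highest in EP), ciliary transport (4 of 87 rose) and the circadian clock (1 of 43 rose and 1 fell) held few calls. Calls made up 1.47% to 4.65% of each of these lists, against 15.3% of all genes tested. The single calls of the proteasome, apoptosis and unfolded protein lists were lost without NM 12 hpt replicate 1, and the upward call of the clock without NM 24 hpt replicate 2. With the replicate block 3 clock contigs rose. The medians of the cilium, proteasome, apoptosis, unfolded protein and oxidative phosphorylation lists were -0.24, -0.01, -0.19, -0.05 and -0.18 and changed sign with library totals (0.06, 0.29, 0.11, 0.25 and 0.13), and those of the proteasome and unfolded protein lists also with the size factors of DESeq2 (0.06 and 0.02). Sterol synthesis had 4 of 36 that rose, among them *cyp51a1* (1.25), and 1 that fell, together 13.9% against 15.3% of all genes tested. Without NM 12 hpt replicate 1 or NM 24 hpt replicate 1, 2 of these sterol contigs rose.

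AO, from the same larvae as NM at each time, changed less between the times: 360 genes rose (1.64%) and 254 fell (1.16%), together 2.79% of the genes tested. The organs share no library, so their changes can be set side by side. They do share the larvae of each time, so a difference between the groups of larvae can enter both organs. Of the genes that rose in NM, 80 also rose in AO, which is 3.76% of the NM genes and 22.2% of the AO genes, and 2 fell in AO. Of the genes that fell in NM, 120 also fell in AO, which is 9.76% of the NM genes and 47.2% of the AO genes, while 173 (14.1% of the NM genes) rose in AO. The change itself differed between the organs in 1073 genes that were higher in NM (4.88%) and 916 that were lower in NM (4.17%), together 9.05%, tested as the interaction of organ and time. This was so for 1000 (47.0%) of the genes that rose in NM and for 702 (57.1%) of those that fell. With AO libraries left out one at a time, 190 to 233 genes rose and 158 to 176 fell in AO, and leaving out any 1 of them moved the upward count by more than 1.5 times. The upward count was 209 without AO 12 hpt replicate 1, 190 without AO 12 hpt replicate 2, 233 without AO 24 hpt replicate 1 and 232 without AO 24 hpt replicate 2, and the downward count was 168 without AO 12 hpt replicate 2 and 158 without AO 24 hpt replicate 2. In AO, 93 rose and 53 fell when the 4 AO libraries were fitted alone.

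**Figure D4:**
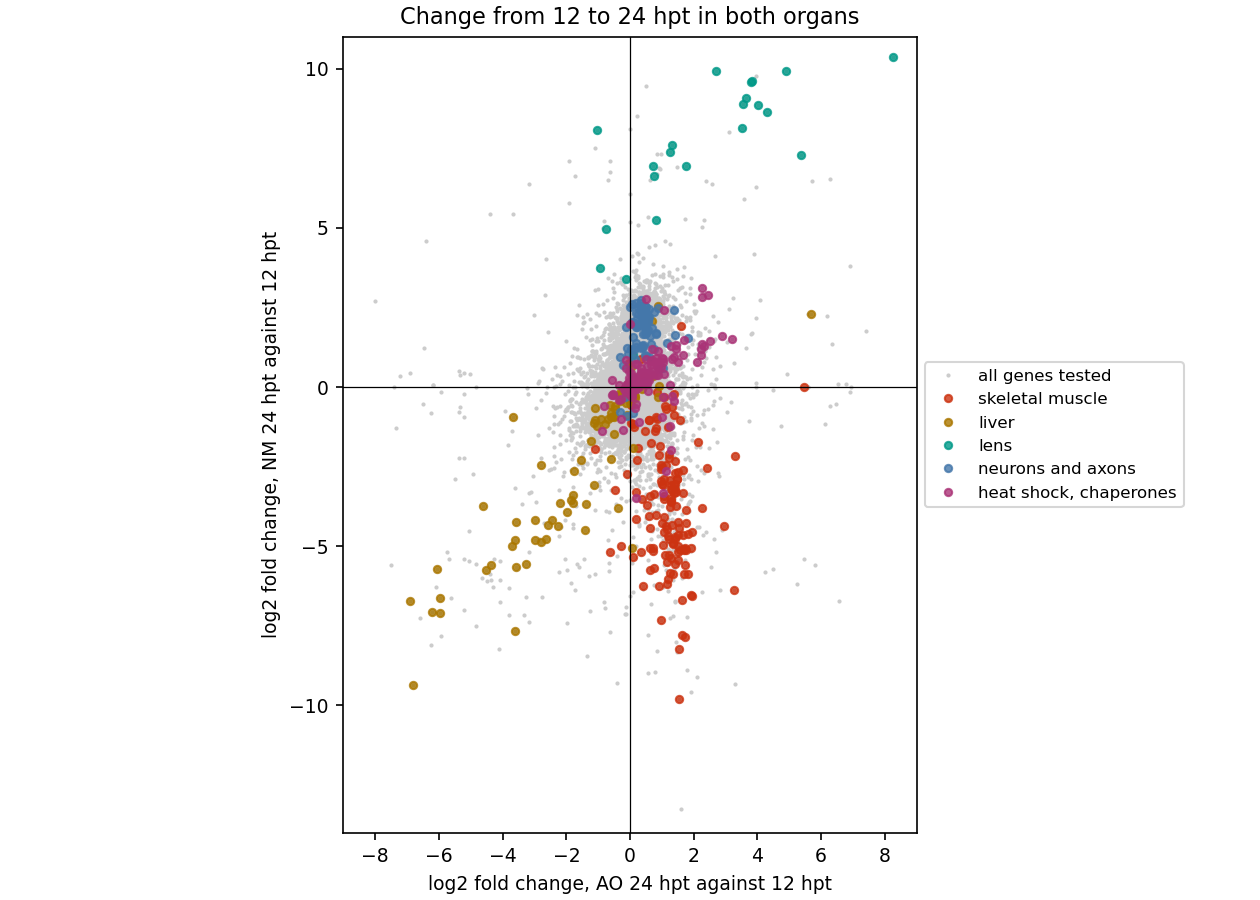
Log2 fold change of 24 hpt against 12 hpt in NM (vertical axis) against that in AO (horizontal axis) for the 21978 genes tested, with 5 gene lists in colour. Skeletal muscle genes lie mostly below 0 in NM and above 0 in AO, liver genes mostly below 0 in both, heat shock genes mostly above 0 in both, and neuron and axon genes rise in NM around a small change in AO.

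Among the genes that rose in both organs were *hspa4l* (2.46 in AO for the contig at 187 and 188 CPM in NM), *hsp70*, *hsp90a.1*, *serpinh1* (3.22 in AO), *sox9* (1.39), *egln1* (1.96), *kdm3a* (2.6), *p4ha2* (2.21), both *slc2a1* contigs (1.12 and 1.25) and *pax2a* (2.14). In the heat shock list 27 of 145 contigs rose in AO, and in the list for low oxygen 10 of 61, against 1.64% of all genes tested. The interaction was called for 13 heat shock contigs lower in NM and 1 higher, and for 6 and 1 low oxygen contigs. Over all genes tested it was called for 4.17% lower in NM and 4.88% higher. *sox9* was at 48.2 CPM in AO at 12 hpt and at 126 CPM at 24 hpt, close to its levels in NM, and lower than in untreated NM at both times. Genes that fell in both organs included *mmp9* (-2.12 in AO), *mmp13*, *mmp21* (-2.38), *ier3* (-2.87), *tnfaip6* (-1.54), *glul* (-1.39), *nkd1* (-1.08), *rspo2* (-1.58) and 23 of 77 liver contigs, *fabp10a* by 6.80 on the log2 scale. *ahrr*, the repressor of the aryl hydrocarbon receptor, fell from 34.8 and 35.9 CPM to 4.60 and 7.10 CPM in NM (-2.58 ± 0.25, FDR = 2.3e-05) and by 2.47 on the log2 scale in AO. Several of these genes were chosen after their values were seen, in part for being called in both organs.

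**Figure D5:**
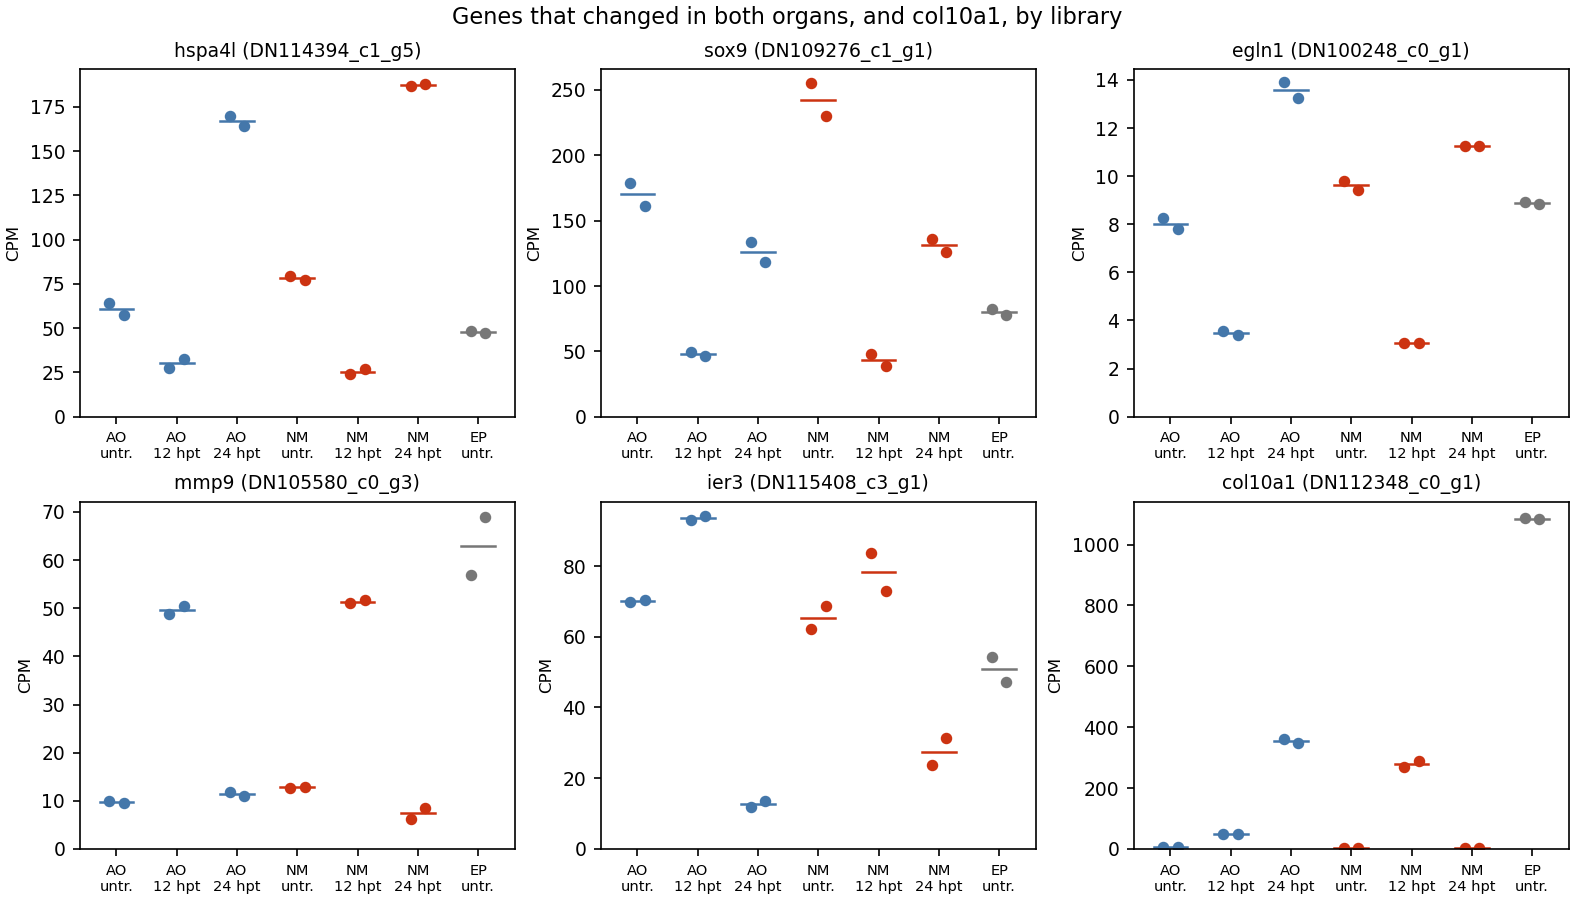
CPM of *hspa4l*, *sox9*, *egln1*, *mmp9* and *ier3*, which changed in the same direction in both organs, and of *col10a1*, which changed in opposite directions, in all 14 libraries by group, with a point for each library and a line at the group mean; each panel has its own linear axis from 0. For the first 5 genes AO and NM move alike between 12 and 24 hpt, and *col10a1* is high in NM at 12 hpt, in AO at 24 hpt and in EP.

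Muscle genes went opposite ways: 107 of 142 contigs fell in NM while 68 rose in AO, and the interaction was called for 108. Of all genes tested, 5.59% fell in NM, 1.64% rose in AO and 9.05% were called in the interaction. *mylpf* rose in AO from a mean of 1753 to 4003 CPM (1.19). *col10a1* rose in AO from 50.1 to 354 CPM (2.82), *krt15* from 105 to 274 CPM (1.38), *tgfb2* from 4.53 to 11.4 CPM (1.31) and *numb* from 20.2 to 44.4 CPM (1.13). For each of these the interaction was called, and EP had the highest mean of the 7 groups. For each, NM at 12 hpt was above NM at 24 hpt while AO at 12 hpt was below AO at 24 hpt. Collagens, of which 25 of 131 fell in NM, had 34 interaction calls, all toward NM lower, against 4.17% of all genes tested.

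The neuronal lists rose in NM more than in AO. For scale, 1.64% of all genes tested rose in AO, and the interaction was called for 4.88% higher and 4.17% lower in NM. Of neuron and axon contigs, 5 of 83 rose in AO (median 0.40) and the interaction was called for 51, all higher in NM. For receptors the interaction was called for 43 higher and 3 lower in NM, for peptides and transmitter genes for 16 higher, and for ribbon synapse genes for 40 higher, against a median change of 0.04 in AO. AO at 12 hpt already held more of these genes than NM at 12 hpt, with a neuron and axon share of 0.341% and 0.354%. Their level was 0.448% and 0.465% in AO at 24 hpt, below NM at that time. Lens contigs rose in 9 of 22 cases in AO (median 2.23), and the interaction was called for 13. Of 6 *otof* contigs, 3 were called in the interaction. In AO, *otof* did not reach the fold threshold, with changes of -0.79, -0.96 and -0.94 for these 3 (differences of 1.31, 1.22 and 1.06, FDR = 0.00524, 0.000236 and 0.00588). *pou4f3* had a change of -0.88 in AO, *slc17a8* of -0.75 and *atoh1* of -0.88, and their interactions were not called.

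Set beside untreated NM, with which both times were compared in the same fit, 2435 genes (11.1%) were higher and 291 (1.32%) lower at 12 hpt, and 3549 (16.1%) were higher and 1100 (5.01%) lower at 24 hpt. These comparisons share libraries with each other and with the one between the times, so their values are given side by side only. Of 83 neuron and axon contigs, 67 were higher than in untreated NM at 12 hpt and 77 at 24 hpt. For ribbon synapse genes the numbers were 29 and 63 of 98, and for receptors 58 and 90 of 115. Of 142 muscle contigs, 118 were higher at 12 hpt and 40 at 24 hpt, and of 44 vessel contigs 13 and 2. Of 22 lens contigs, 21 were higher at 24 hpt. Of 77 liver contigs 8 were lower at 12 hpt and 40 at 24 hpt, and of 131 collagen contigs 14 and 72. Motile cilium genes, which changed little between the times, were higher than in untreated NM in 69 of 153 contigs at 12 hpt and in 52 at 24 hpt. Cell division genes were lower in 1 of 180 contigs at 12 hpt and in 16 at 24 hpt.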

How the data were processed

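Libraries of NM, AO and EP were sequenced as paired reads (CASAVA 1.8.2 base calls, per the labels). Trimming with Trimmomatic 0.38 and assembly with Trinity over all libraries came first. The authors then estimated expected counts per assembled gene with RSEM (version not given in the sources used here) in the Trinity procedure and deposited these counts unnormalized with an annotation table. Symbols were given for 22237 of 23448 genes, and 0 columns of sample values were left out. Depth limits low genes, and a group without a count was set to 3 counts in sum for a bound. Such bounds and the 95% intervals cover counting error alone.

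Counts were rounded to whole numbers, filtered with filterByExpr, TMM-scaled and fitted with 7 group means over 14 libraries in edgeR 4.0.16 (R 4.3.3, quasi-likelihood test, common coefficient of variation 0.121), after the script was tested on simulated data. Calls needed a log2 fold change beyond 1 and an FDR under 0.01. DESeq2 1.42.0, edgeR's exact test, other filters and scalings, a fit of the compared groups alone, a replicate block and leaving out each library were alternatives. Same-numbered libraries deviated together from their group means in 21 of 21 pairs of groups (correlation 0.125 to 0.232, median 0.194, with a prior count of 2). With a prior count of 1, 20 of 21 were above 0.1. This pairing of libraries comes from the data and not from the labels. The reported fit has no replicate term and leaves the pairing out, which enters only in the replicate block.

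Named genes were the 12 largest called changes in each direction with a mean of at least 5 CPM, up to 4 called members per list (in a list without calls, the 2 of highest level), hair cell genes, candidate regulators, and the 5 largest interactions in each direction. Not every one is printed, and the other genes named were chosen after their values were seen. The genes and the 40 lists were chosen with earlier results of these data known. The patterns of 3 lists (exocrine pancreas, liver, motile cilium) were corrected after the matched names were seen, and 6 lists (lens, retina, peptides and transmitters, receptors, pituitary hormones, low oxygen) were added after seeing the data. No genome was used, and no sequence is shown. Some genes are not reported here.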

Additional observations from a re-analysis of the deposited data

Results flagged for a closer look

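The change from 12 to 24 hpt differed between NM and AO in 1073 genes toward NM higher and in 916 toward NM lower, by the test of the interaction of organ and time. Those named here were picked out by that same test, and each value is the change in NM minus the change in AO on the log2 scale. Where a group had no count, the fitted value depends on the prior count and is no bound.

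Lens genes gave differences of 7.20 for *cryba2*, 6.14 and 5.81 for 2 contigs of *crybb1*, 6.22 and 4.62 for 2 contigs of *cryba1*, 6.29 for *cryaa* and 5.89 for *lim2*. The active zone scaffold *pclo* differed by 8.92 in the contig that had no count in NM at 12 hpt.

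Differences toward NM lower were -11.34 for a *ttn* contig, -10.66 for *ptges3l*, -9.74 for *mmp20*, -9.53 for *ctsv*, -9.19 for *col10a1*, -8.89 for *hcea*, -7.47 for *rbfox1l*, -6.96 for *gh2* and -2.75 for *tbx18*. The hair cell gene *otof* differed by 1.31, 1.22 and 1.06 in 3 contigs. None of these 3 contigs was called in NM or in AO alone by edgeR's quasi-likelihood test.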

How the results depend on the processing

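Of 334 named genes, 314 were called, and none of the alternatives turned the direction of one. The fit without the lists of other tissues did not hold the named genes of those lists. Of the named genes it held, 225 kept their result. With the compared groups fitted alone 275 kept theirs, and not every named gene was tested. The calls lost were 30 with DESeq2, 7 with the size factors of DESeq2 in edgeR, 55 with the compared groups fitted alone, 39 with library totals, 1 without a filter, 1 without the lists of other tissues, and 40 to 51 with a single NM library left out. The replicate block gave 2212 genes that rose and 1297 that fell in NM, 414 and 290 in AO, and 1241 and 1009 in the interaction. It shared 2115 and 1219 of the NM calls and, beside the clock list, changed no other call of a named gene or list count by more than 1.5 times. DESeq2 called 1915 genes higher and 930 lower in NM, of which 1815 and 909 were shared.

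With the compared groups fitted alone, 778 genes fell in NM, and 93 rose and 53 fell in AO. With library totals, 761 genes fell in NM, and the interaction was called for 1702 genes higher and 678 lower. Fits on fewer libraries have fewer residual degrees of freedom, and the cause of the other shifts was not tested. With 1 library left out, where the lone library of a group is assumed to vary like the others, 1696 to 1805 genes rose and 1030 to 1068 fell in NM, 190 to 233 and 158 to 176 did so in AO, and 762 to 816 and 739 to 800 were called in the interaction. Leaving out the lists of other tissues and using library totals were added as alternatives after the data were seen. With the other scaling of DESeq2, the other filters, the exact test and an FDR under 0.05, each count over all genes was within 1.5 times of the reported one. The exact test gives no interaction and was not run there. Counts of list members moved by more than 1.5 times most often with library totals (33) and the compared groups alone (26).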
